A study of Homo sapiens with 6 samples.

Results

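FKBP5 encodes FKBP51, a co-chaperone that binds HSP90 and tunes the hormone binding of the androgen, glucocorticoid and progesterone receptors. Androgens and glucocorticoids induce the gene, and in prostate cancer cells its transcript is a widely used readout of androgen receptor activity. The locus was taken as the 40 kb bins at chr6:34600001-36720000 (hg19), a rule of position alone, set with earlier results of these data known, together with every topologically associating domain (TAD) that overlaps them. These are 53 bins, of 3836 bins of chromosome 6 and 64693 bins of the genome that held any contact. All 53 were usable in both maps, meaning that their contacts reached at least 10% of the chromosome's median. FKBP5 itself lies on the minus strand at chr6:35541362-35696360 and spans 5 bins. Its canonical transcript starts at position 35656692, in the bin at chr6:35640001-35680000, and its outermost transcript starts in the next bin, at chr6:35680001-35720000, which also holds ARMC12.

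The study used Hi-C, which fixes chromatin, cuts and religates its DNA, and reads the joined fragments as pairs that lay close together in the nucleus. LNCaP, an established human prostate cancer cell line, received 20 nM of a pool of non-targeting siRNAs (control siRNA) or 20 nM of a pool of siRNAs against CTCF (CTCF siRNA), and was transfected again before collection at 144 h. There were 2 control siRNA libraries and 4 CTCF siRNA libraries, 2 of which are numbered as further versions of a replicate. The authors pooled the libraries of each condition into 1 map and 1 TAD list, so no replicate spread can be given, no p-value was computed, and intervals below cover counting error only. On chromosome 6 the control siRNA map held 744765 contacts, with a median of 336 per usable bin, and the CTCF siRNA map 2665976, with a median of 1066. The maps hold no expression, so neither the FKBP5 transcript nor the extent of CTCF depletion was measured here.

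CTCF is a zinc finger protein that binds an oriented DNA motif and stops the cohesin complex as it extrudes chromatin loops. Where it stops cohesin, contacts between the flanking regions are fewer, and such places often form the edges of TADs. A gene inside a TAD meets distal elements of its own TAD more often than elements outside it.

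The siRNA sequences show what was targeted, and each is printed in lower case from 5′ to 3′. The first, the third and the fourth each matched transcripts of CTCF and of no other gene, in coding sequence of exon 3 of the canonical transcript. They lie on the plus strand at chr16:67644951-67644969, chr16:67644838-67644856 and chr16:67645048-67645066. The second, of 18 letters as the labels give it, matched no transcript of the annotation exactly.
siRNA 1: gaugaagacugaaguaaug
siRNA 2: ggagaaagaagaagagua
siRNA 3: gaagaugccugccacuuac
siRNA 4: gaacagcccauaaacauag

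The 250 bases before the canonical FKBP5 start are printed next because the promoter bin is named for them. They lie on the minus strand at chr6:35656693-35656942, and their letters, from the RefSeq promoter table, were found once on chromosome 6 of GRCh37. Capitals mark the GC box GGGCGG, searched on both strands, of which this promoter held 3. Of 35116 promoters in the table, 42.6% held at least 1 within the same length. The half-site AGAACA of the androgen and glucocorticoid receptors, searched on both strands, had 0 matches here and at least 1 in 12.4% of promoters. The promoter of the outermost transcript, at chr6:35696361-35696610, had 0 matches of either motif. A missing match says only that these letters are not in this window.
FKBP5 canonical promoter: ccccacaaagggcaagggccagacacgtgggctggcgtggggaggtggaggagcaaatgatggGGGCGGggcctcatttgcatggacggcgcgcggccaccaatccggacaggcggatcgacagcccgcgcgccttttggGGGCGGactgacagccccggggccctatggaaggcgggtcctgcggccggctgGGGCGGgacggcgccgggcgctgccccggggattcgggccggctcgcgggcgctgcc

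The TAD that holds FKBP5 was shorter in the CTCF siRNA list, with a new edge on each side of the gene. In control siRNA the gene lay in a TAD of 1160 kb, chr6:35220001-36380000, which is larger than 73.6% of that list. It held the starts of 21 protein-coding genes, from ZNF76, DEF6 and the fatty acid receptor gene PPARD below FKBP5 to the p38 kinase genes MAPK14 and MAPK13 and the ETS factor gene ETV7 above it. In CTCF siRNA the gene lay in a TAD of 400 kb, chr6:35420001-35820000, larger than 14.7% of its list. That TAD held 10 starts, those of FANCE, RPL10A, TEAD3, TULP1, FKBP5, ARMC12, CLPSL2, CLPSL1, CLPS and LHFPL5. The canonical start was 436.7 kb from the lower edge and 723.3 kb from the upper edge in control, and 236.7 kb and 163.3 kb in CTCF siRNA.

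The former TAD was divided among 3 CTCF siRNA TADs, of which only the lowest reached past it. Its lower 200 kb, with ZNF76, DEF6 and PPARD, joined the neighbouring TAD with ANKS1A, TCP11 and SCUBE3, whose extent went from 400 kb to 600 kb. Its upper 560 kb, from SRPK1 to ETV7, became a TAD of its own. Of 5 control boundaries in the window, 3 were maintained, at positions 34820000, 36380000 and 36540000, and 2 were lost, at 34620000 in ILRUN and 35220000 between SCUBE3 and ZNF76. The CTCF siRNA list gained 2 boundaries, at 35420000 in the bin of FANCE, a Fanconi anaemia repair gene, and RPL10A, a ribosomal protein gene, and at 35820000 in the bin of LHFPL5 and SRPK1. The authors reported maintained, lost and new boundaries across the genome as well, and the shares there were not computed with the rule used here. These counts are therefore not read as particular to the locus. The lists were called from maps of unequal depth, and the part of depth in these differences was not tested.

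**Figure D1:**
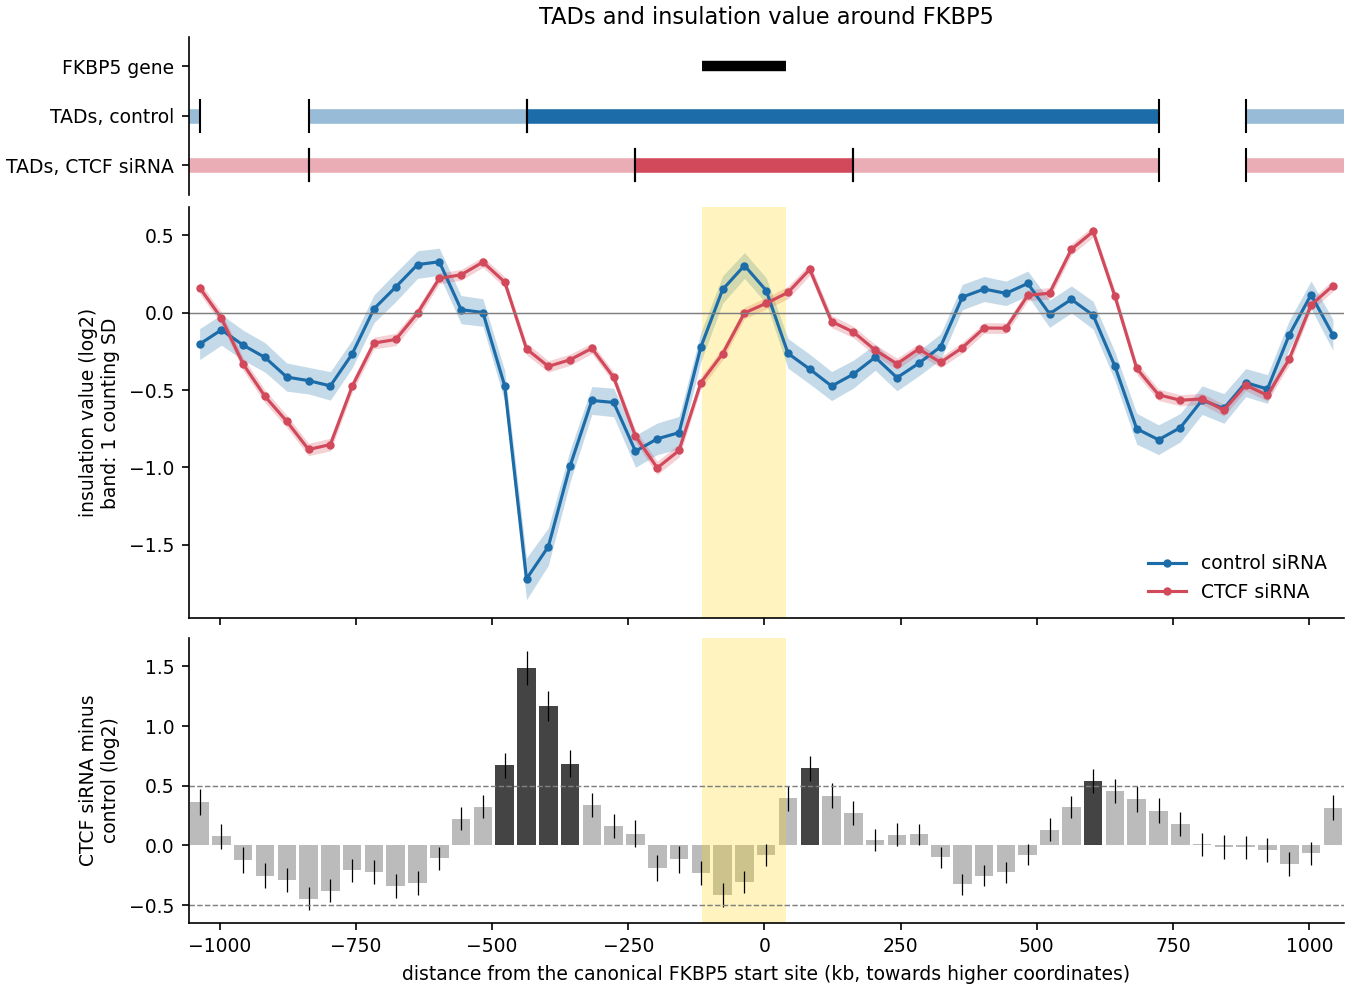
TADs of both lists (top, with the TAD that holds FKBP5 in full colour and edges as ticks), the insulation value of each 40 kb bin in both maps (middle, log2, bands of 1 counting SD) and its change (bottom, log2, bars of 1 counting SD), against distance from the canonical FKBP5 start. Yellow marks the gene, dark bars are changes past 0.5, and the highest bar, 1.49, stands at the lower edge of the control TAD.

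The lower edge of the control FKBP5 TAD lost most of its insulation, and this was the largest change in the window. The insulation value of a bin compares, on the log2 scale, the contacts that span it with those inside its 2 flanks of 400 kb, each relative to what distance predicts, so a low value means few contacts across. In the bin of the SCUBE3 and ZNF76 border it was -1.72 ± 0.14 (counting SD) in control, where 0.9% of genome bins had a lower one, and -0.23 ± 0.04 in CTCF siRNA. Contacts across that bin were 125 against 347 expected in control and 1880 against 1297 expected in CTCF siRNA. Those within its flanks were 1232 against 1038 expected in control and 6358 against 3729 expected in CTCF siRNA. The change, 1.49 ± 0.14 on the log2 scale, was above that of 99.8% of genome bins. The TAD lists that name this edge come from the same contacts.

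Neighbouring bins changed with it, as they share most of their contacts. The value rose by 1.16 ± 0.13 in the ZNF76 and DEF6 bin, by 0.69 ± 0.11 in the DEF6 and PPARD bin and by 0.67 ± 0.11 in the SCUBE3 bin. Past these 4 bins, a change over 0.5 was measured only in the bin of the colipase-like genes CLPSL2 and CLPSL1, 0.65 ± 0.10, and in a PNPLA1 bin, 0.54 ± 0.10. So 6 of 53 bins rose and 0 fell, beside 12.9% of 62012 genome bins that rose and 3.83% that fell past the same size. The share of risen bins in the window was thus near that of the genome.

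The other edges changed less than this one with flanks of 400 kb, and none past 0.5. At the other lost boundary, in the ILRUN bin at chr6:34600001-34640000, the difference was 0.365 ± 0.107. At the upper edge of the control TAD, in the PXT1 bin, the insulation value was -0.82 ± 0.10 in control and -0.53 ± 0.04 after CTCF siRNA, a difference of 0.29 ± 0.10. With flanks of 200 kb that difference was 0.09 ± 0.18. At the FANCE and RPL10A edge of the CTCF siRNA TAD it was -0.90 ± 0.10 and -0.80 ± 0.04, a difference of 0.10 ± 0.11, while with flanks of 200 kb the control value was 0.14 and the CTCF siRNA value -0.17. At the LHFPL5 and SRPK1 edge it was -0.40 ± 0.09 and -0.13 ± 0.04, a difference of 0.27 ± 0.10. Neither gained edge had a lower value after CTCF siRNA with flanks of 400 kb. With flanks of 200 kb the differences were -0.31 ± 0.17 and -0.32 ± 0.18, so the direction at both gained edges depended on the flank. The lowest value of the CTCF siRNA profile in the window was -1.003 ± 0.04, in the bin of TEAD3, a Hippo pathway factor gene, and TULP1, next to the gained lower edge, where control had -0.82 ± 0.10.

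The largest falls stood at a maintained boundary and inside FKBP5. In the BLTP3A bin of the boundary at 34820000 the value went from -0.44 ± 0.09 to -0.88 ± 0.04, a difference of -0.45 ± 0.10, and in the next bin, with TAF11, the difference was -0.38 ± 0.10. In the bin at chr6:35560001-35600000, within the FKBP5 gene, it went from 0.15 ± 0.09 to -0.27 ± 0.04, a difference of -0.42 ± 0.10. None of the 3 passed 0.5.

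Along the gene, the profile had its peak in the middle in control and at the outer start in CTCF siRNA. In control the 5 bins had values of -0.22, 0.15, 0.31, 0.14 and -0.26 from lower to higher coordinates. In CTCF siRNA they had -0.45, -0.27, -0.002, 0.06 and 0.13. The bin of the canonical start differed by -0.08 ± 0.09 with these flanks, and by -0.40 ± 0.13 with flanks of 200 kb, from 0.64 to 0.24. That of the outer start differed by 0.39 ± 0.10. The mean over the gene was 0.02 in control and -0.11 in CTCF siRNA, a difference of -0.13 ± 0.10. The mean difference was -0.35 ± 0.14 with flanks of 200 kb and 0.09 ± 0.07 with flanks of 800 kb, so it has no direction that holds at every scale.

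Contacts between segments of the locus were compared with an expected value from distance and from the balanced coverage of each bin. Coverage here means the contacts a bin makes with other bins of chromosome 6. Segments run between the boundaries of both lists, and a bin that a boundary cuts is in no segment. So the FKBP5 segment holds 9 bins and the ZNF76 to PPARD segment 4. Coverage had to enter, because relative to the chromosome's median all 53 bins had more contacts within the chromosome in CTCF siRNA than in control. The ratio was 1.01 to 2.54 (median 1.89). The window is rich in G and C, with a median of 45.1% per bin against 38.9% on chromosome 6. Across the 53 bins the log2 of that coverage ratio correlated with GC content (Pearson's r 0.70, Spearman's rho 0.72), a description over neighbouring bins of the same pooled libraries. The part of GC content in the contact changes was not tested.

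**Figure D2:**
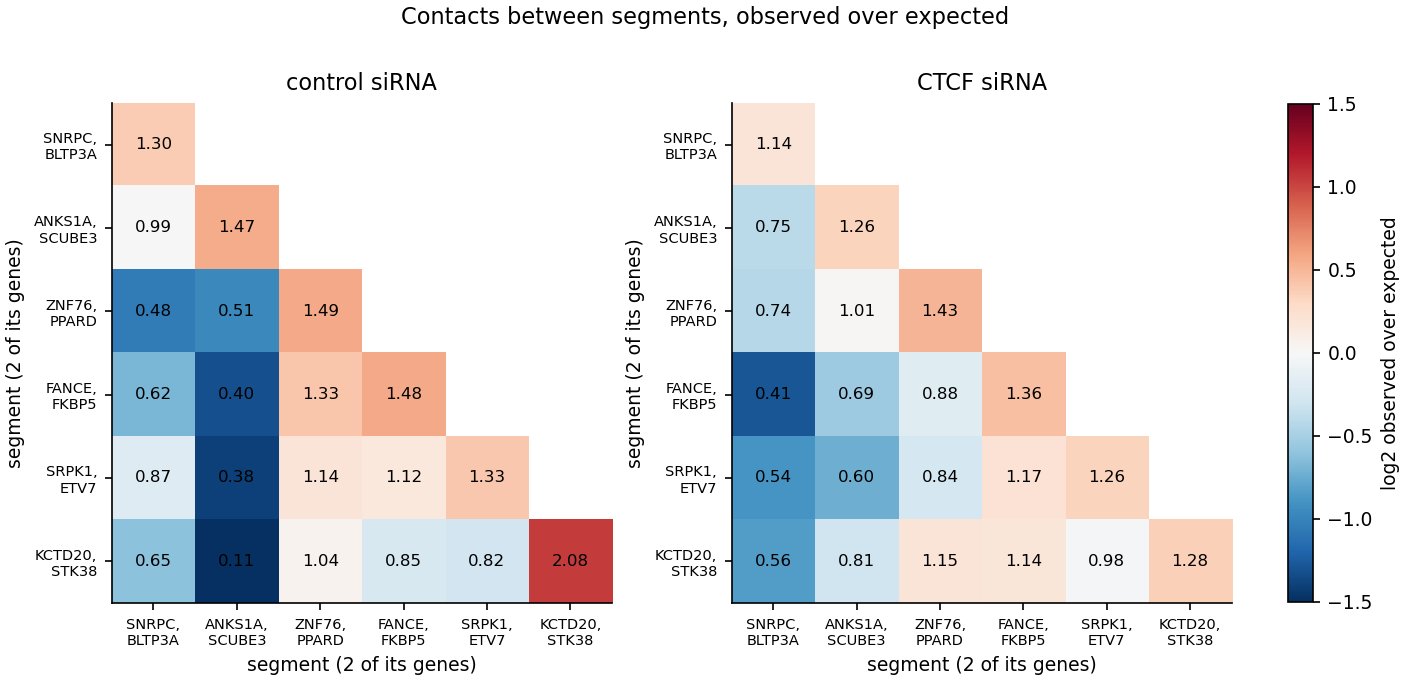
Observed over expected contacts between and within the 6 segments that the boundaries of both lists cut from the locus, in control siRNA (left) and CTCF siRNA (right), expected from distance and bin coverage, coloured on a log2 scale and with the value printed. Each segment is labelled by 2 genes in its range and leaves out the bins that a boundary cuts, among them the bin of FANCE. The cell of the ANKS1A and SCUBE3 segment with the FKBP5 segment reads 0.40 in control and 0.69 in CTCF siRNA.

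The segment around FKBP5 had more contacts with the former neighbouring TAD after CTCF siRNA. With this expectation it had fewer with the ZNF76 to PPARD piece of its own former TAD. Between the FKBP5 segment (chr6:35420001-35820000) and the ANKS1A to SCUBE3 segment (chr6:34820001-35220000), 71 contacts in control were 0.40 of expected and 820 in CTCF siRNA were 0.69 of expected, a ratio of 1.72 (95% interval 1.34 to 2.22). Between the FKBP5 segment and the ZNF76 to PPARD segment (chr6:35220001-35420000), 134 contacts were 1.33 of expected and 687 were 0.88 of expected, a ratio of 0.66 (0.55 to 0.80). Both intervals leave out 1, but the segments were cut at TAD edges called from these same contacts. The values describe the lists and give no separate support for them. An expectation from distance alone gave ratios of 3.002 and 1.397, so the first direction held and the second turned.

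The ZNF76 to PPARD segment had its higher observed over expected value with the FKBP5 side in control and with the SCUBE3 side in CTCF siRNA. With coverage in the expectation, the intervals of the 2 CTCF siRNA values, 0.8156 to 0.9485 and 0.9454 to 1.076, overlapped. This segment too was cut at TAD edges called from these contacts. Its contacts with the ANKS1A to SCUBE3 segment were 65, or 0.51 of expected, in control and 932, or 1.01 of expected, in CTCF siRNA, a ratio of 1.97 (1.53 to 2.57), and 3.91 from distance alone. Relative to expected, its contacts with the FKBP5 segment were above those with its lower neighbour in control and below them in CTCF siRNA, and distance alone gave the same order, 0.76 against 0.37 in control and 1.06 against 1.44 in CTCF siRNA.

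Within the FKBP5 segment and towards its upper neighbour the changes were small with this expectation and not with distance alone. Within it, observed over expected was 1.48 (1.36 to 1.62) in control and 1.36 (1.32 to 1.42) in CTCF siRNA, a ratio of 0.92 (0.84 to 1.01), and 1.596 (1.45 to 1.76) from distance alone. With the SRPK1 to ETV7 segment (chr6:35820001-36380000), which the gained upper edge divides from it, the values were 1.116 (1.01 to 1.23) and 1.17 (1.1208 to 1.21), a ratio of 1.04 (0.94 to 1.17), and 1.74 (1.56 to 1.94) from distance alone.

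The gene body itself, its 5 bins as a sum, had, with the same expectation, fewer contacts with the lower piece of its former TAD and more with the upper piece. Within the gene, 162 contacts were 1.62 of expected (1.38 to 1.89) in control and 647 were 1.36 of expected (1.26 to 1.47) in CTCF siRNA, a ratio of 0.84 (0.71 to 1.01). With the rest of the control TAD, observed over expected was 1.119 (1.02 to 1.22) and 1.17 (1.13 to 1.21), a ratio of 1.04 (0.95 to 1.15), which does not show a difference. That sum also holds the rest of the CTCF siRNA TAD and the bins at its edges. With the rest of the CTCF siRNA TAD, observed over expected was 1.41 and 1.35, a ratio of 0.95 (0.83 to 1.09), which does not show a difference. The other parts of the sum differed. With the ZNF76 to PPARD segment the ratio was 0.60 (0.44 to 0.82), from 1.14 to 0.68 of expected, and with the SRPK1 to ETV7 segment it was 1.32 (1.11 to 1.57), from 0.89 to 1.17. From distance alone the ratios were 1.04 (0.77 to 1.43) and 1.89 (1.59 to 2.26), so the upper ratio was above the lower one under both expectations, and the lower piece had fewer contacts only where coverage entered.

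The same contacts can be read as shares, before any expected value is applied. The segments were cut at TAD edges called from these contacts, so the shares give no separate support. Of the contacts of the gene body with those 2 segments, 54 of 201 in control, 26.9% (Wilson 95% interval 21.2 to 33.4), and 207 of 1253 in CTCF siRNA, 16.5% (14.6 to 18.7), were with the ZNF76 to PPARD segment. The coverage of that segment relative to the chromosome was 2.28 times as high in CTCF siRNA as in control, against 1.78 times for the SRPK1 to ETV7 segment. The part of coverage in these shares was not tested.

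Beyond the control TAD the gene body made fewer contacts than expected in both maps, and relative to expected those above it rose after CTCF siRNA. With the 1 Mb below it, 59 contacts were 0.44 of expected in control and 398 were 0.51 of expected in CTCF siRNA, a ratio of 1.17 (0.89 to 1.56). With the 1 Mb above it, 34 were 0.55 and 314 were 0.80 of expected, a ratio of 1.45 (1.02 to 2.13). The ratios for the gene body were higher with an expectation from distance alone, 1.115 within the gene, 1.599 with the rest of the control TAD, 1.74 below it and 2.37 above it.

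**Figure D3:**
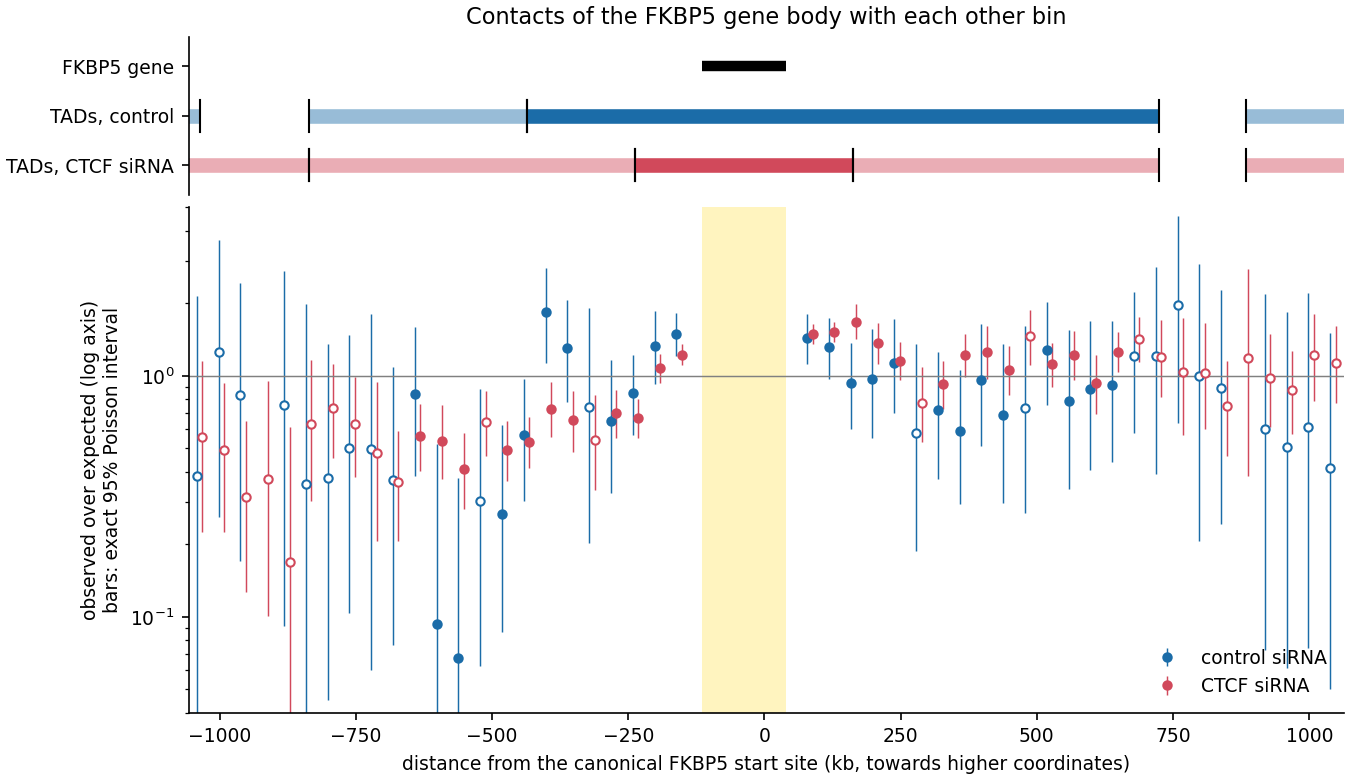
Observed over expected contacts of the 5 FKBP5 bins with every other bin of the locus (log axis), against distance from the canonical start, with exact 95% Poisson intervals and the TADs above. Filled points had at least 10 contacts expected in each map, open points fewer, bins without contacts are not drawn, and some intervals run below the axis. The ZNF76 and DEF6 bin stands at 1.83 in control and 0.73 in CTCF siRNA.

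Single partner bins of the gene body were called where the ratio passed 1.5-fold, its interval left out 1 and at least 10 contacts were expected in each map. Of 24 bins that could be tested, 3 were higher and 2 lower after CTCF siRNA. Among runs of 5 bins of chromosome 6 and partner bins at up to 600 kb, 7.38% were called higher and 7.08% lower, so 5 calls in 24 bins are not set apart from the rest of the chromosome, and the values below describe where they lay. From distance alone, 14 of 26 were higher and 0 lower, beside 15.8% and 20.0% of such runs, so the lower calls below were lost and the higher ones were not.

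Both bins called lower with coverage in the expectation lay just inside the lost edge. The ZNF76 and DEF6 bin made 21 contacts with the gene body in control, 1.83 of expected (1.13 to 2.80), the highest value of any tested partner in that map, and 59 in CTCF siRNA, 0.73 of expected (0.56 to 0.94), a ratio of 0.40 (0.24 to 0.69), or 0.75 (0.45 to 1.30) from distance alone. The DEF6 and PPARD bin went from 1.31 to 0.65 of expected, a ratio of 0.50 (0.29 to 0.91). DEF6 encodes a guanine nucleotide exchange factor of lymphocytes.

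The bins with more contacts lay on both sides. The LHFPL5 and SRPK1 bin, at the gained upper edge, made 25 contacts, 0.93 of expected (0.60 to 1.37), in control and 144, 1.68 of expected (1.42 to 1.98), in CTCF siRNA, a ratio of 1.81 (1.18 to 2.88) and the highest value of any tested partner in that map. A bin within MAPK14 went from 11 contacts to 95, a ratio of 2.06 (1.102 to 4.27). The bin of the testis gene TCP11, beyond the lost edge, went from 1 contact against 14.8 expected to 32 against 78.0 expected, from 0.07 to 0.41 of expected, a ratio of 6.06 whose interval (1.01 to 247) is wide.

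The promoter bins were measured less well. The bin of the canonical start held 162 contacts of all distances within the chromosome in control and 1084 in CTCF siRNA, 0.48 and 1.02 of the chromosome's median. With the rest of the control TAD it made 88 contacts, 1.09 of expected (0.87 to 1.34), in control and 707, 1.28 of expected (1.19 to 1.38), in CTCF siRNA, a ratio of 1.18 (0.94 to 1.48). From distance alone the ratio was 2.21. The outer start bin made 275 contacts, 1.35 of expected, and 1542, 1.27 of expected, a ratio of 0.94 (0.82 to 1.07), and from distance alone 1.54 (1.35 to 1.76), which turns its direction.

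Single partners of the promoter bins could hardly be tested. At 80 kb or more, 0 partners of the canonical start bin reached 10 expected contacts in each map, so no partner is ranked for it. Its 1 testable partner was the outer start bin next to it, with 17 contacts in control, 1.003 of expected (0.58 to 1.61), and 190 in CTCF siRNA, 1.63 of expected (1.41 to 1.88), a ratio of 1.63 (0.99 to 2.85). It was not called, beside 3.11% called higher and 4.3% lower of 3532 bin pairs of chromosome 6 at 40 kb or less. Of 5 testable partners of the outer start bin, 0 were called, beside 3.25% higher and 4.91% lower of 7013 bin pairs at 120 kb or less. The highest control value among the 5 was 1.94 of expected (1.202 to 2.97), with the bin at chr6:35560001-35600000 in the gene, against 1.29 (1.01 to 1.63) in CTCF siRNA. Higher control values stood just under the limit of 10 expected and were picked after they were seen. The outer start bin made 31 contacts with the TULP1 bin against 9.58 expected, 3.24 of expected (2.198 to 4.59), and 98 in CTCF siRNA, 1.57 of expected, a ratio of 0.49 (0.32 to 0.75). With the bin at chr6:35520001-35560000, at the 3′ end of FKBP5, it made 29 against 8.84 expected, 3.28 of expected (2.1965 to 4.71), and 55 in CTCF siRNA, 1.48 of expected, a ratio of 0.45 (0.28 to 0.73).

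The direction of contacts, on which the authors' TAD caller rests, differed between the maps at the FKBP5 start. Of contacts within 2 Mb of the canonical start bin, 48 of 104 in control, 46.2% (Wilson 95% interval 36.9 to 55.7), and 559 of 845 in CTCF siRNA, 66.2% (62.9 to 69.3), lay towards higher coordinates. These intervals do not overlap, as in 21 of the 53 bins, 13 of them higher in CTCF siRNA and 8 lower. On chromosome 6, 13.3% of 3771 bins were higher and 13.1% lower without overlap, so the start bin is 1 of many such bins. The share of higher bins, 13 of 53, was larger in the window than on the chromosome, and that of lower bins was near it. Neighbouring bins share contacts, and this difference was not tested. In the outer start bin the share was 44.6% (39.2 to 50.02) and 56.5% (54.2 to 58.7). Without neighbouring bins the share of the canonical start bin was 40.8% in control and 58.5% in CTCF siRNA.

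At the edges the shares were read beside the TAD lists, which come from the same contacts. In the SCUBE3 and ZNF76 bin of the lost edge, 22.2% (18.6 to 26.3) of contacts in control and 31.6% (29.9 to 33.4) in CTCF siRNA lay towards higher coordinates, and in the ZNF76 and DEF6 bin just above it 74.7% (68.2 to 80.3) and 51.6% (49.0 to 54.1). The step across the lost edge was smaller in CTCF siRNA and still present. In the LHFPL5 and SRPK1 bin of the gained upper edge the share was 54.2% (47.9 to 60.4) and 40.4% (37.1 to 43.8). In the SRPK1 bin just above it the share was 49.1% (41.7 to 56.6) and 55.2% (51.8 to 58.6). In the SRPK1 and SLC26A8 bin, next in order, it was 47.1% (40.4 to 53.9) and 60.5% (57.8 to 63.2). The change from lower to higher sides at that edge was thus present in CTCF siRNA and not resolved in control. At the gained lower edge the FANCE and RPL10A bin had 40.3% (34.9 to 45.9) and 35.6% (33.5 to 37.7), and the TEAD3 and TULP1 bin above it 58.8% (52.0 to 65.2) and 52.2% (49.9 to 54.5), the same order in both maps.

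**Figure D4:**
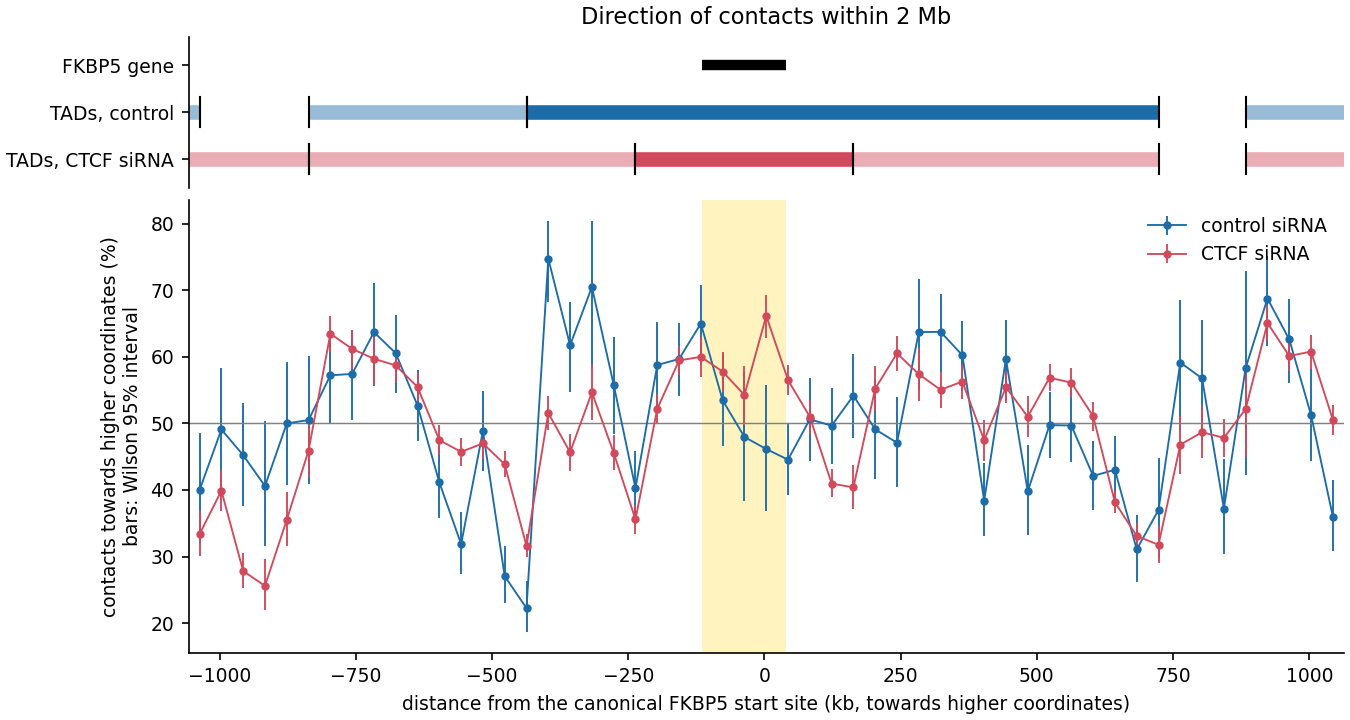
Share of each bin's contacts within 2 Mb that lay towards higher coordinates (percent, Wilson 95% intervals), against distance from the canonical FKBP5 start, with the TADs above. Values under 50 mean more contacts with lower coordinates, and at the start of FKBP5 the share is 46.2% in control and 66.2% in CTCF siRNA.

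The sequence of the bins was read from GRCh37. BglII, the enzyme of the Hi-C, had a median of 10 sites per bin in the window, from 1 to 18, and 11 on chromosome 6. The bin of the canonical start held 6, and 94.8% of bins held as many or more. The core consensus of CTCF, searched on both strands, had 7 matches in 6 of 53 bins, or 11.3% of them, against 11.5% of chromosome 6 bins with at least 1.

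The matches at boundaries and at FKBP5 are printed because they lie in the bins the results turn on. Of 7 boundary bins, 2 held a match, the SCUBE3 and ZNF76 bin of the lost edge and the FANCE and RPL10A bin of the gained edge. The outer FKBP5 start bin held 2, a number that 1.0% of chromosome 6 bins reached, and the other 4 FKBP5 bins held 0. The matches not printed were on the plus strand in an ANKS1A bin and in the TULP1 bin, and on the minus strand in a MAPK14 bin. All 4 printed matches were on the minus strand, at chr6:35209044-35209073, chr6:35417354-35417383, chr6:35696981-35697010 and chr6:35705483-35705512. Capitals mark the core and each is given 5′ to 3′ on its own strand. A match is a description of the letters, and CTCF binding was not measured in these files.
SCUBE3 and ZNF76 bin: catctttggCCAGCAGAGGGCactgcccac
FANCE and RPL10A bin: ttctatcttCCAGCAGATGGCagtaaagta
outer FKBP5 start bin, first: ccagagatgCCACCAGATGGCaggaggccc
outer FKBP5 start bin, second: aatgatattCCAGCAGATGGCaataaagag

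Other androgen-induced genes were compared through the insulation value at their start sites. For these genes and for all protein-coding genes the start was the outermost one, with flanks of 400 kb. By that rule FKBP5 differed by 0.39 ± 0.10, in its outer start bin. In its canonical start bin it differed by -0.08 ± 0.09, and by -0.40 ± 0.13 with flanks of 200 kb. Of 15 such genes, 4 rose past 0.5 and 0 fell, with a median of 0.21, against 16.2% that rose and 6.02% that fell of 16731 protein-coding genes with a value, with a median of 0.08. The largest rises were 0.83 ± 0.11 for SORD, the sorbitol dehydrogenase gene, and 0.72 ± 0.11 for TRPM8, a cation channel gene, followed by ORM1 (0.65) and SLC45A3 (0.52). The lowest differences were -0.36 ± 0.08 for KLK3, which encodes prostate-specific antigen, and -0.32 ± 0.07 for ZBTB16, a zinc finger repressor gene.

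Of 10 genes linked to FKBP51, 8 had a value, with a median of -0.10. Past 0.5, 0 changed in either direction, beside the same 16.2% and 6.02% of all protein-coding genes. Most of the 10 encode proteins of steroid receptor chaperone complexes, not all of them binding FKBP51 itself. PHLPP1, the gene of an AKT phosphatase, is 1 of the 10. FKBP4 and STUB1 start below position 9400001, where the maps hold no contacts on any chromosome. The highest differences were 0.43 ± 0.21 for PPID, a cyclophilin co-chaperone gene, and 0.14 ± 0.11 for the HSP70-HSP90 organising protein gene STIP1. The lowest were -0.42 ± 0.07 for NR3C1, the glucocorticoid receptor gene, and -0.35 ± 0.10 for NR3C2, the mineralocorticoid receptor gene.

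**Figure D5:**
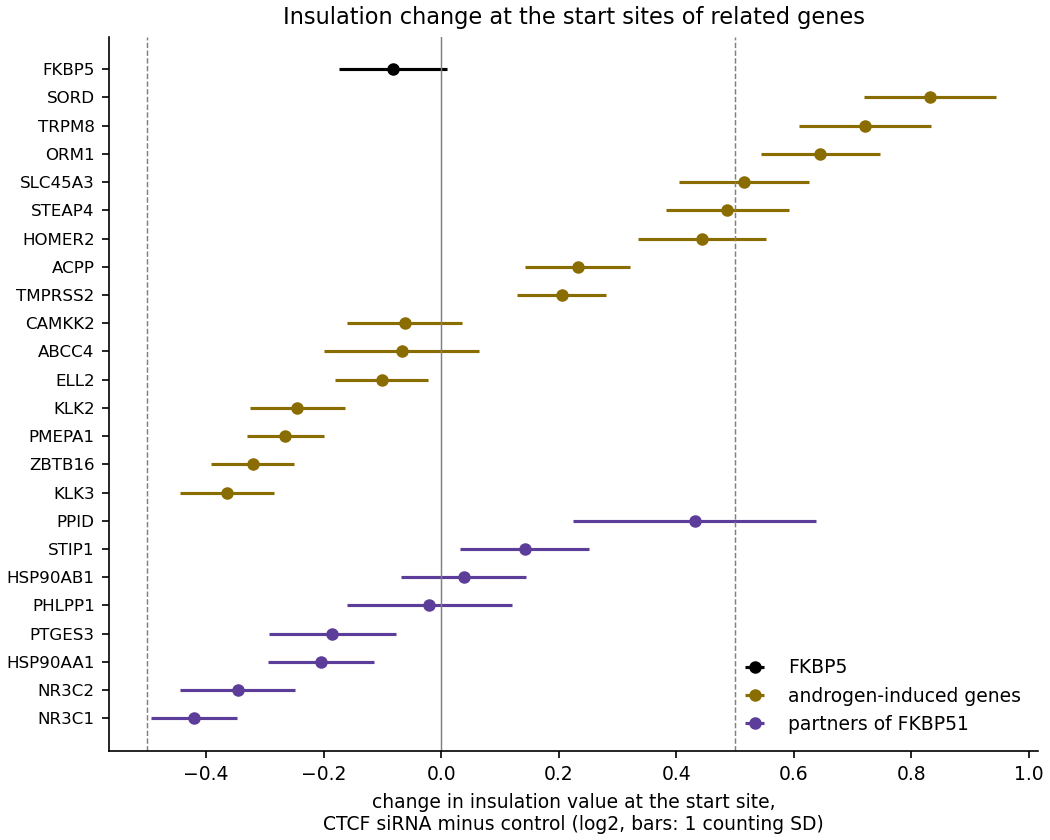
Difference in insulation value at the start site between CTCF siRNA and control with flanks of 400 kb (log2, bars of 1 counting SD). Shown are FKBP5, the androgen-induced genes and the genes linked to FKBP51 (labelled partners, though not all bind FKBP51), with dashed lines at 0.5 in size. SORD, TRPM8, ORM1 and SLC45A3 lie past the upper line. FKBP5, drawn at its canonical start bin, lies at -0.08, where flanks of 200 kb, not drawn, gave -0.40. The other genes are drawn at their outermost start, and the outer start bin of FKBP5, not drawn, had 0.39.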

How the data were processed

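Per the labels and the methods, DNA was cut with BglII, reads were mapped to hg19 and duplicates tagged, and the libraries of a condition were pooled at 40 kb. The submitters' processing notes name Bowtie 1.1.0, SAMtools 1.2, Picard 1.121 and FastQC 0.11.2. The deposited contact values are read-pair counts multiplied by 1 factor for each bin of the pair, shared by position across chromosomes between 9400001 and 48120000, and are not raw counts. The authors' TAD lists give starts and ends. Groups follow the siRNA named in each title.

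The factors were estimated from the values and divided out. In the window all 871 values with a factor in control and all 1300 after CTCF siRNA were then whole, with a tolerance of 0.0101 plus 0.05% of the value. Random remainders would give 3.02% and 4.52%. Contacts were expected from the mean at each distance, without bin coverage for insulation and with balanced bin coverage elsewhere. At least 50% of the bin pairs behind an insulation value had to be usable. Counting SDs came from Poisson variances, intervals of counts and ratios were exact (Poisson, conditional binomial), and shares had Wilson intervals. Boundaries were 1 position where facing edges lay at most 100 kb apart and were shared within 40 kb. The named places are the gene, its TAD edges, and the 3 bins with the largest rise and the 3 with the largest fall in insulation. The members and gene lists were chosen with earlier results of these data known, and the test of single partners of the whole gene body, the segments, the shares of the gene body's contacts and the GC comparison were added after values were seen. Alternatives changed the flank, the expectation, the counts, the usable bins and the thresholds. Scripts were tested on simulated data and used Python 3.11.15, numpy 2.4.6, scipy 1.17.1 and pandas 2.3.3. Gene positions came from GENCODE on GRCh37.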

Additional observations from a re-analysis of the deposited data

How the results depend on the processing

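There were 28 results and 127 alternatives, of which 98 stayed within counting error of the value reported or, for counts, within 1.5 times it, 27 moved and 2 took a called value to the other side of 1. Those for the edges of the CTCF siRNA TAD, the gene body's contacts within it, with the pieces of the control TAD and with single partners, the segments and the outer start bin were chosen after seeing the data. With flanks of 200 kb the mean insulation difference over the gene was -0.35, that at the lower edge of the CTCF siRNA TAD -0.31 and that at its upper edge -0.32. With flanks of 800 kb the mean over the gene was 0.094, the change at the lower edge of the control TAD was 0.93 and 3 bins passed 0.5, and 2 bins passed a threshold of 1. With an expectation from distance alone, ratios of CTCF siRNA over control were 1.115 within the gene, 1.599 with the rest of the control TAD, 1.62 with the rest of the CTCF siRNA TAD, 1.74 below the control TAD, 2.37 above it and 2.21 for the promoter bin, and 2 promoter bin partners were called. The 2 values that changed sides were the FKBP5 segment with the ZNF76 to PPARD segment, 1.397 (1.16 to 1.69), which was called the other way, and the gene body with that segment, 1.04 (0.77 to 1.43), where the call was lost. The FKBP5 segment had ratios of 3.002 with the ANKS1A to SCUBE3 segment, 1.596 within itself and 1.74 with the SRPK1 to ETV7 segment, and the ZNF76 to PPARD segment 3.91 with the ANKS1A to SCUBE3 segment. For the gene body the ratio was 1.888 with the SRPK1 to ETV7 segment and for the outer start bin 1.54, and 14 gene body partners were called higher and 0 lower. The coverage of the window, higher in CTCF siRNA, enters these ratios by construction. On the values as deposited 6 gene body partners were called higher and 1 lower. With an expectation from the short arm, 1 promoter bin partner was called. Shares over the chromosome or genome were not computed for the promoter bin partners under these alternatives. The same holds for partners on the values as deposited and for bins with flanks of 800 kb or a threshold of 1. These counts are therefore not read against the rest of the map. Facing edges joined up to 400 kb left 1 maintained boundary, 2 lost and 3 gained. Without neighbouring bins the share of the promoter bin's contacts towards higher coordinates was 40.8% in control and 58.5% in CTCF siRNA.

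No paired analysis was possible because each condition has only 1 pooled map, and for the same reason no library was left out. Low counts limit the control map: the canonical start bin held 162 contacts, against 336 in a median bin, and its single partners were testable at 40 kb at most. The outer start bin, with 425, was testable at up to 120 kb. The libraries, their GC content and depth cannot be told apart from the siRNA.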
